A study of Danio rerio with 20 samples.

Results

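The genes described here are those that the study's curated list of zebrafish metabolic genes places under steroid biosynthesis and terpenoid backbone synthesis, without the ids that the list also gives under pyruvate metabolism. The steroid heading holds 21 ids and the terpenoid heading 20, of which 2 were left out, so that 39 of the 32512 genes in the count table were followed. The list was assembled by the study from pathway annotations and not from these libraries. All 39 genes were present in the count table, and 38 passed the filter on low counts. The remaining id, a second copy of *hsd17b7*, had between 0 and 8.1 normalized counts in every library.

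RNA-Seq was carried out on whole zebrafish larvae at 5 dpf that had been kept under a 12 h light and 12 h dark cycle, with 30 larvae pooled for each library. Untreated wild-type siblings, *rx3 weak* mutants (t25181/t25181) and *rx3 strong* mutants (t25327/t25327) were collected at 4 zeitgeber times (hours after lights on), ZT3, ZT9, ZT15 and ZT21. Siblings and *rx3 strong* mutants that had been given 25 µM dexamethasone (DEX), a synthetic glucocorticoid, were collected at the same times. Each of these 5 conditions had 1 library per time point, 20 libraries in all. Both alleles severely disturb eye development, and the strong allele, which also leaves few pituitary corticotropes, is the study's model of glucocorticoid (GC) deficiency, with the weak allele as the control for the eye defect. The labels give a mixed TU, AB and WIK background for all samples. They call the first 12 libraries untreated, while the columns of the count table name DMSO, the solvent of DEX. By the labels the untreated and the DEX libraries were made with different library kits, while the study's methods name a single kit. With the labels followed, DEX and kit cannot be told apart in any level set across them.

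Cholesterol is built from acetyl-CoA. HMG-CoA synthase and HMG-CoA reductase make mevalonate, and the reductase step is the main control point of the pathway and the target of statins. Mevalonate is turned into isoprene units, which are joined to farnesyl diphosphate. From there one branch leads through squalene and lanosterol to cholesterol, and others lead to the lipid anchors of prenylated proteins, to dolichol and to the side chain of ubiquinone. In vertebrates most genes of the cholesterol branch are switched on together by the transcription factor SREBP-2 when membrane sterols are low. Cholesterol is also the precursor of steroid hormones, cortisol among them, and vitamin D is made from the last intermediate before cholesterol.

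The total counts lay between 16427280 and 22204708 in the 12 untreated libraries and between 12586879 and 49738048 in the 8 DEX libraries, the lowest being that of DEX treated wild-type siblings at ZT3. The targeted gene *rx3* had 93.8 to 152 normalized counts in untreated wild-type siblings, 38 to 53.9 in *rx3 weak* and 44.6 to 66 in *rx3 strong* mutants, which does not test whether the protein works. In all 7 photoreceptor genes tested the levels were lower in both mutants, and their summed normalized counts fell from between 36569 and 48817 in wild-type siblings to between 906 and 2956 in *rx3 weak* and to between 166 and 211 in *rx3 strong* mutants. Of the 9 liver genes tested 7 were higher in *rx3 strong* mutants, with sums of 267202 to 302034 against 138952 to 233489 in wild-type siblings, and 2 were higher in *rx3 weak* mutants, with sums of 161152 to 281314. Of 5 enterocyte genes 1 was lower in *rx3 strong* mutants and 0 of 5 passed the test in *rx3 weak* mutants. Whole larvae were measured, so that fewer cells of a type and less RNA per cell cannot be told apart. The part of these cell types in the results below was not tested.

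Levels in untreated *rx3 strong* mutants were compared with those of their wild-type siblings to see how the pathway stands in GC deficient larvae. Of the 20 tested genes on the route from HMG-CoA to cholesterol 14 fell, 0 rose and 6 did not pass the test, with a median log2 change of −0.74. These 20 are the tested genes of the mevalonate steps and of the steps from squalene synthase on, while *fdps*, which links them, was counted with the prenyl chain synthases. *hmgcra*, one of the 2 HMG-CoA reductase genes, fell most, to 14.8% of the wild-type mean, while its paralog *hmgcrb* did not pass the test. The 4 genes that hydrolyse or form sterol and lipid esters were all higher. Over all 38 tested members 18 were lower, where 10.5% of the 22078 genes tested were lower, and 4 were higher, against 8.66% of all genes, together 22 where 19.2% of all genes were called. The median log2 change of the members was −0.40, and that of all genes 0.01. All of these comparisons used the quasi-likelihood test of edgeR, adjusted over all genes after Benjamini and Hochberg, with 0.05 as the threshold and the time point in the model. The 4 time points stood in for replicates, so each p-value rests on 1 library per genotype and time. In 16 members the 4 libraries of *rx3 strong* mutants were all below the 4 wild-type libraries, where 7.94% of all genes tested had this order. In 3 they were all above, against 7.28% of all genes. All 18 members that fell were lower at each of the 4 time points. The call itself was made from these time points, so this adds no separate support. Of all 39 members, called or not, 21 were lower at each time point. The share over all genes was not computed. Of the 22 members called, 20 were called whichever of the 12 libraries was left out, the exceptions being *fdps* and *pdss2*.

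**Figure D1:**
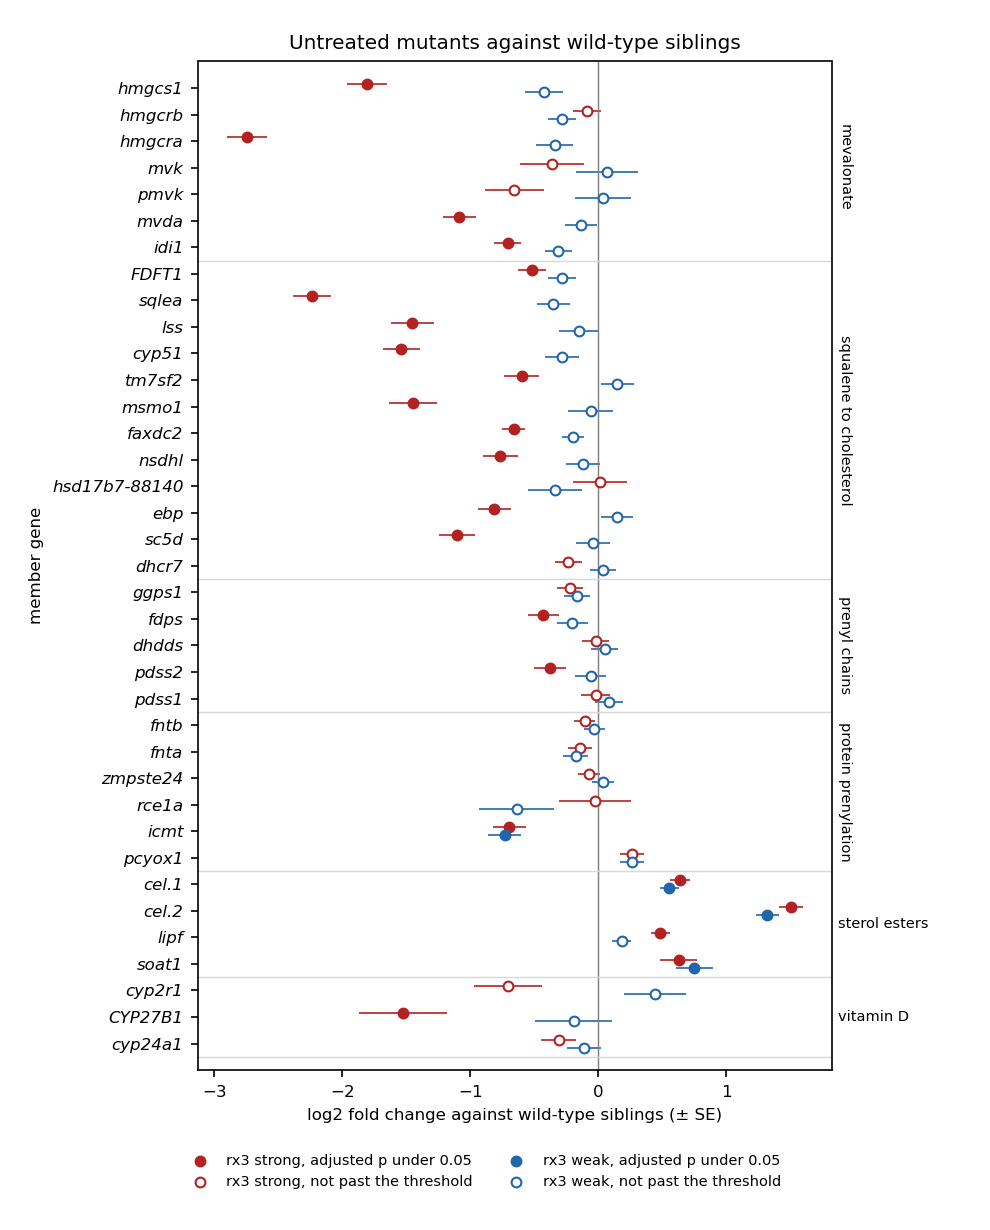
Log2 fold change ± SE (x axis) of 37 of the 38 tested members (y axis, grouped by step) in *rx3 strong* (red) and *rx3 weak* mutants (blue) against wild-type siblings, untreated, with filled points for an adjusted p under 0.05. Among the genes from HMG-CoA to cholesterol 14 are filled in red and 0 in blue, while *cel.1*, *cel.2* and *soat1* are filled on the right in both colours.

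In the first steps, *hmgcs1*, the cytosolic HMG-CoA synthase, had 2911, 2087, 2279 and 2239.9 normalized counts at ZT3, ZT9, ZT15 and ZT21 in wild-type siblings, 2276, 1554, 1139 and 2299 in *rx3 weak* and 742, 752, 685 and 515 in *rx3 strong* mutants. All *rx3 strong* values were below all others. The log2 change against wild-type siblings was −1.81 ± 0.16 (SE, adjusted p = 8.57e-08, edgeR). *hmgcra* had 2041, 1684, 2172 and 3127 normalized counts in wild-type siblings, 1550.3, 1473, 1255 and 3251 in *rx3 weak* and 359, 371, 223 and 384 in *rx3 strong* mutants. The highest *rx3 strong* library thus lay below the lowest library of the other genotypes, and the log2 change was −2.74 ± 0.16 (adjusted p = 2.59e-10). *hmgcrb* had 469, 492, 389.8 and 471 normalized counts in wild-type siblings, 424, 322, 309 and 465 in *rx3 weak* and 472, 403, 433 and 409 in *rx3 strong* mutants. The groups overlapped, and the log2 change of *hmgcrb* in *rx3 strong* mutants was −0.08 ± 0.11 (adjusted p = 0.657). Per kilobase of gene length, *hmgcra* made up 77.5% to 86.9% of the reductase reads in the wild-type libraries, 78.6% to 87.5% in those of *rx3 weak* and 34.1% to 48.5% in those of *rx3 strong* mutants.

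Further along the mevalonate chain, *mvda*, which decarboxylates mevalonate diphosphate, had 447, 311, 303 and 331 normalized counts in wild-type siblings, 339.5, 307, 266 and 367 in *rx3 weak* and 157, 194, 142 and 160 in *rx3 strong* mutants. The log2 change in *rx3 strong* mutants was −1.09 ± 0.13 (adjusted p = 6.17e-06, edgeR). *idi1*, the isomerase of isopentenyl diphosphate, had 2764, 2060.5, 2115 and 2296 normalized counts in wild-type siblings, 2309.8, 1805, 1360.1 and 2092 in *rx3 weak* and 1411, 1555, 1368 and 1294 in *rx3 strong* mutants. Its *rx3 strong* libraries were all below the wild-type ones but overlapped those of *rx3 weak* mutants (log2 change −0.71 ± 0.11 against wild-type siblings, adjusted p = 8.83e-05). The kinases that act before *mvda*, *mvk* and *pmvk*, did not pass the test, with log2 changes of −0.36 ± 0.25 (adjusted p = 0.352) and −0.66 ± 0.23 (adjusted p = 0.0544).

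**Figure D2:**
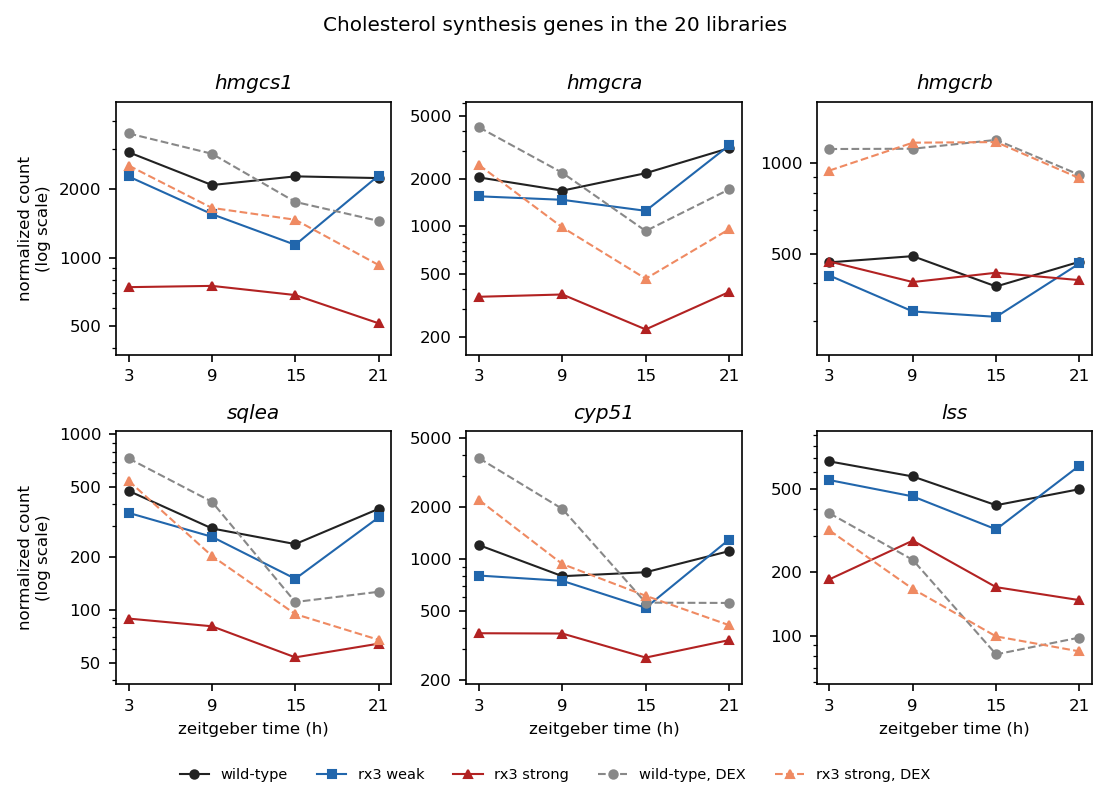
Normalized counts (y axis, log scale) of *hmgcs1*, *hmgcra*, *hmgcrb*, *sqlea*, *cyp51* and *lss* by zeitgeber time (x axis), 1 point per library, with solid lines for untreated and broken lines for DEX libraries. In untreated libraries *rx3 strong* mutants (red) lie below the other genotypes at every time point except for *hmgcrb*, and under DEX *hmgcra* has 4237 normalized counts at ZT3 and 935 at ZT15 in wild-type siblings.

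On the way from squalene to cholesterol 10 of the 13 tested genes were lower in *rx3 strong* mutants. *sqlea*, the squalene epoxidase, had 478, 292, 238 and 378 normalized counts in wild-type siblings, 358, 262, 151 and 338 in *rx3 weak* and 89.6, 81, 53.9 and 64.5 in *rx3 strong* mutants. Its mean in *rx3 strong* mutants was 20.8% of the wild-type mean (log2 change −2.24 ± 0.15, adjusted p = 1.83e-09, edgeR). For *lss*, which closes the sterol rings to lanosterol, the counts were 677, 574, 418 and 499 in wild-type siblings, 551, 461, 321 and 647 in *rx3 weak* and 186, 284, 170.2 and 148 in *rx3 strong* mutants (log2 change −1.45 ± 0.17, adjusted p = 4.4e-06). For *cyp51*, the lanosterol demethylase, they were 1202, 795, 838 and 1109.8 in wild-type siblings, 802, 748, 523 and 1295 in *rx3 weak* and 372, 371, 269 and 339.7 in *rx3 strong* mutants (log2 change −1.54 ± 0.14, adjusted p = 2.48e-07). The *rx3 strong* libraries of these 3 genes were below every library of the other untreated genotypes.

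In the demethylation steps that follow, *msmo1*, the sterol methyl oxidase, had 1395, 764, 695 and 884 normalized counts in wild-type siblings, 1207, 769, 462 and 1269 in *rx3 weak* and 484, 439, 219 and 233 in *rx3 strong* mutants. Here the highest *rx3 strong* library, at ZT3, exceeded the lowest of *rx3 weak* mutants, at ZT15, and the log2 change against wild-type siblings was −1.45 ± 0.19 (adjusted p = 1.46e-05, edgeR). *nsdhl*, which acts in the same demethylation, had 558, 399.5, 414 and 344 normalized counts in wild-type siblings, 496, 389, 284 and 428 in *rx3 weak* and 314, 299.9, 225 and 176 in *rx3 strong* mutants. Its log2 change was −0.76 ± 0.14 (adjusted p = 0.000555). *faxdc2*, a hydroxylase-like gene listed beside *msmo1*, had 1336, 1100, 1309 and 2278 normalized counts in wild-type siblings, 1078, 944, 1177 and 2182 in *rx3 weak* and 731, 701, 1029.7 and 1337 in *rx3 strong* mutants. The groups overlapped, with the highest library at ZT21 in each, and *rx3 strong* mutants were lower at each time point (log2 change −0.66 ± 0.09, adjusted p = 2.68e-05).

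Among the last steps, *ebp*, the sterol isomerase, had 412, 309.9, 238 and 174 normalized counts in wild-type siblings, 410.2, 359, 217 and 266 in *rx3 weak* and 196, 203, 121 and 122 in *rx3 strong* mutants (log2 change −0.81 ± 0.13 against wild-type siblings, adjusted p = 0.00018, edgeR). Its *rx3 strong* libraries overlapped the wild-type ones but were all below those of *rx3 weak* mutants, and were lower than both at each time. *sc5d*, the sterol desaturase, had 1032, 761, 844 and 845 normalized counts in wild-type siblings, 886, 723, 678 and 1154 in *rx3 weak* and 429.6, 465, 388 and 331 in *rx3 strong* mutants, without overlap (log2 change −1.10 ± 0.14, adjusted p = 1.25e-05). *FDFT1*, the squalene synthase, and *tm7sf2*, a sterol reductase, fell by less, with log2 changes of −0.52 ± 0.11 and −0.60 ± 0.14. *dhcr7*, the reductase that finishes cholesterol, did not pass the test (−0.23 ± 0.11, adjusted p = 0.14). The copy of *hsd17b7* that passed the filter did not pass the test either (0.01 ± 0.21, adjusted p = 0.978). Reads that fit both of its 2 ids may be missing, since only uniquely mapped reads were counted.

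Of the 5 prenyl chain synthases 2 fell in *rx3 strong* mutants, namely *fdps*, which makes farnesyl diphosphate for all branches (log2 change −0.43 ± 0.12), and *pdss2*, a subunit of the ubiquinone side chain synthase (−0.37 ± 0.12). The call of *fdps* was lost without the wild-type library of ZT3 or ZT15 or the *rx3 strong* library of ZT3 or ZT21 (adjusted p between 0.0584 and 0.098). That of *pdss2* was lost without wild-type ZT3, ZT9 or ZT15, *rx3 weak* ZT3, ZT9 or ZT21, or *rx3 strong* ZT3, ZT15 or ZT21 (adjusted p between 0.0501 and 0.172). *ggps1*, *dhdds*, which serves dolichol synthesis, and *pdss1* had log2 changes between −0.22 and −0.02 and did not pass the test. Of 6 genes of protein prenylation and its processing only *icmt*, the methyltransferase of prenylated proteins, passed it. *icmt* had 257, 249.7, 234 and 215 normalized counts in wild-type siblings, 172, 145, 116 and 149.7 in *rx3 weak* and 146, 167, 146 and 133 in *rx3 strong* mutants. It was lower in both mutants, by log2 changes of −0.73 ± 0.13 (*rx3 weak*, adjusted p = 0.000564, edgeR) and −0.69 ± 0.13 (*rx3 strong*, adjusted p = 0.000769). The farnesyltransferase subunits *fnta* and *fntb*, the proteases *zmpste24* and *rce1a*, and *pcyox1* had log2 changes between −0.14 and 0.26 in *rx3 strong* mutants.

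The *rx3 weak* mutants served to set the eye defect apart from GC deficiency. Against wild-type siblings 0 of the 20 tested genes from HMG-CoA to cholesterol passed the edgeR test in *rx3 weak* mutants, and their median log2 change was −0.15. With the same threshold on the unadjusted p-value 14 of all 38 members were past it, against 26.3% of all genes tested. The values of *hmgcs1* (−0.42 ± 0.15, adjusted p = 0.0706), *idi1* (−0.31 ± 0.11, adjusted p = 0.0579) and *sqlea* (−0.35 ± 0.13, adjusted p = 0.0839) were below 0. Of all 38 members 3 were higher, against 6.08% of all genes, and 1 lower, *icmt*, against 7.96% of all genes, together 4 where 14% of all genes were called. The 4 libraries of *rx3 weak* mutants were all below those of wild-type siblings in 1 member (*icmt*), where 7.27% of all genes were, and all above in 1 (*cel.2*), where 6.3% were. Without the *rx3 weak* library of ZT21 the count of members called was 9 in place of 4, and without the *rx3 strong* library of ZT21 it was 7. *rx3 strong* and *rx3 weak* mutants were also compared directly. Of the 20 cholesterol genes 13 were lower in *rx3 strong* than in *rx3 weak* mutants, and 15 of all 38 members were, where 7.07% of all genes tested were lower. The difference was −2.40 ± 0.16 (log2) for *hmgcra* (adjusted p = 5.37e-09), −1.89 ± 0.15 for *sqlea*, −1.39 ± 0.16 for *hmgcs1*, −1.39 ± 0.19 for *msmo1* and −1.30 ± 0.17 for *lss*. *lipf* alone was higher, where 5.06% of all genes were, so that 16 members differed, where 12.1% of all genes did. The call of *lipf* (0.30 ± 0.07, adjusted p = 0.0106) was lost without the library of ZT9 of either mutant (adjusted p of 0.0529 and 0.0853). The call of *idi1* (−0.40 ± 0.11, adjusted p = 0.0195) was lost without the library of ZT3 or of ZT21 of either mutant (adjusted p between 0.0833 and 0.0994). In 11 members the 4 *rx3 strong* libraries were all below those of *rx3 weak* mutants, against 5.8% of all genes, and in 0 were they all above, against 5.13%. The photoreceptor sums of these mutants also differed, as given above, and so did a pituitary gene. *gh1*, the growth hormone gene, had a log2 change of −4.46 in *rx3 strong* (adjusted p = 7.21e-10) and of −0.03 in *rx3 weak* mutants (adjusted p = 0.99) against wild-type siblings, and was lower in the strong than in the weak mutants by −4.44 (adjusted p = 2.67e-09). Of both pituitary genes tested, *gh1* and *prl*, 2 were lower in *rx3 strong* and 0 in *rx3 weak* mutants against wild-type siblings, with summed counts of 21 to 36 in *rx3 strong*, 103 to 216 in *rx3 weak* and 127 to 193 in wild-type libraries. The mutants thus differ in more than GC, and the part of these differences was not tested. At the single time points, the median log2 ratio to wild-type libraries was taken over the 20 genes and the untested copy of *hsd17b7*. In *rx3 strong* mutants it was −1.04 at ZT3, −0.61 at ZT9, −0.88 at ZT15 and −0.83 at ZT21. The shortfall of *rx3 strong* mutants was thus present by day and by night. In *rx3 weak* mutants the median was −0.3 at ZT3, −0.09 at ZT9, −0.38 at ZT15 and 0.12 at ZT21.

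The members that rose in *rx3 strong* mutants hydrolyse or form sterol and lipid esters. *cel.1* and *cel.2* are near copies of the carboxyl ester lipase of the pancreas. Only uniquely mapped reads were counted, so reads that fit both may be missing from their counts. *cel.2* had 1089, 1347, 1429 and 1843 normalized counts in wild-type siblings, 3106, 3181, 3867 and 4162 in *rx3 weak* and 3763, 3572, 4697 and 4071 in *rx3 strong* mutants. Both mutants lay above all wild-type libraries, with log2 changes of 1.32 ± 0.09 (*rx3 weak*, adjusted p = 4.71e-09, edgeR) and 1.51 ± 0.09 (*rx3 strong*, adjusted p = 5.85e-10). *cel.1* had 3161, 3582, 4027 and 5298 normalized counts in wild-type siblings, 5203, 4924, 6384 and 7108 in *rx3 weak* and 5203, 5856, 6508 and 7306 in *rx3 strong* mutants (log2 changes 0.55 ± 0.08 and 0.64 ± 0.08). Of 8 other genes of the exocrine pancreas 7 were higher and 0 lower in *rx3 weak* mutants, with summed counts of 89332 to 141451 against 59477 to 115997 in wild-type siblings. In *rx3 strong* mutants 1 was higher and 3, the elastases *ela2*, *ela2l* and *ela3l*, were lower (sums of 58721 to 104043). *soat1*, which esterifies cholesterol for storage, was higher in both mutants, with log2 changes of 0.75 ± 0.14 (*rx3 weak*, adjusted p = 0.00111) and 0.63 ± 0.14 (*rx3 strong*, adjusted p = 0.00429). The id listed as *lipf*, which the gene name table used here calls LIPA, the lysosomal acid lipase, was higher in *rx3 strong* mutants (0.49 ± 0.07, adjusted p = 0.000105).

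**Figure D3:**
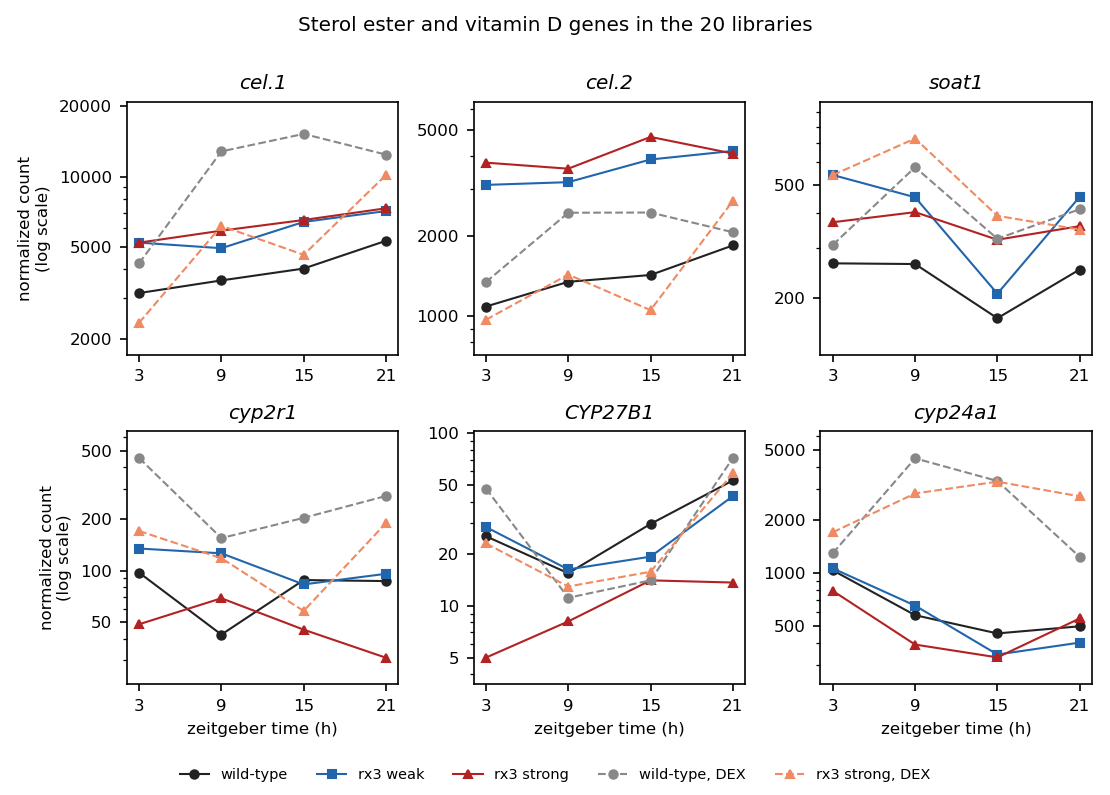
Normalized counts (y axis, log scale) of *cel.1*, *cel.2*, *soat1*, *cyp2r1*, *CYP27B1* and *cyp24a1* by zeitgeber time (x axis), 1 point per library. Both untreated mutants lie above untreated wild-type siblings for *cel.2* at all times, and under DEX *rx3 strong* mutants (orange) lie below wild-type siblings (grey) for *cel.1* at all times.

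The list also holds 3 genes of vitamin D metabolism. *CYP27B1*, the kidney enzyme that activates vitamin D, was low, with 25.2, 15.4, 29.7 and 53 normalized counts in wild-type siblings, 28.5, 16.2, 19.2 and 43 in *rx3 weak* and 5, 8.1, 14 and 13.6 in *rx3 strong* mutants. The *rx3 strong* libraries were all below the wild-type ones (log2 change −1.52 ± 0.34, adjusted p = 0.00402, edgeR). Against *rx3 weak* mutants the change of *CYP27B1* was −1.33 ± 0.35 (adjusted p = 0.0163), and this call was lost when the library of ZT3 or of ZT21 of either mutant was left out (adjusted p between 0.0538 and 0.0816). *cyp2r1*, the first hydroxylase of vitamin D, had 97.2, 42.3, 88 and 86.8 normalized counts in wild-type siblings, 134, 126, 83 and 95.7 in *rx3 weak* and 48.6, 68.9, 45.2 and 31 in *rx3 strong* mutants. It was lower in the strong than in the weak mutants (log2 difference −1.15 ± 0.25, adjusted p = 0.00506), while the change against wild-type siblings did not pass the threshold (−0.71 ± 0.26, adjusted p = 0.0712). *cyp24a1*, which inactivates vitamin D, had a log2 change of −0.31 ± 0.14 in *rx3 strong* mutants (adjusted p = 0.127).

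Of the genes that control sterol synthesis, uptake and efflux, a list of 27 symbols that are not members, 17 could be matched to 1 id each and were tested. In untreated *rx3 strong* mutants 7 were lower and 1 was higher. *srebf2*, which encodes SREBP-2, fell by 0.48 on the log2 scale (adjusted p = 0.000239, edgeR), *insig1*, which holds SREBP-2 in the endoplasmic reticulum and is itself a target of it, fell by 0.42 (adjusted p = 0.00171), and *ldlra*, an LDL receptor, fell by 0.29 (adjusted p = 0.0123). *abcg1*, a sterol exporter, fell by 1.43 (adjusted p = 1.47e-06), and *npc1*, which releases cholesterol from lysosomes, rose by 0.41 (adjusted p = 0.000651). In *rx3 weak* mutants 3 of the 17 were lower, *srebf2* and *abcg1* among them, and 1, *ldlra*, was higher. There *srebf2* fell by 0.46 on the log2 scale (adjusted p = 0.000494) and *abcg1* by 1.20 (adjusted p = 1.27e-05). Both comparisons share the wild-type libraries.

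The DEX libraries were used to ask how the same genotypes compare under constant GC treatment. Of the 20 genes from HMG-CoA to cholesterol 2 were lower in DEX treated *rx3 strong* mutants than in DEX treated siblings, *hmgcra* and *hmgcs1*, and 18 did not pass the test. The median log2 change of the 20 was −0.28. Values of the 18 lay between −0.65 (*sqlea*, adjusted p = 0.0556, edgeR) and 0.37 (*faxdc2*, adjusted p = 0.208). Over all 38 members 4 were lower, where 4.43% of the 22609 genes tested were, and 0 were higher, where 3.48% of all genes were, out of 7.91% called in either direction (edgeR). DESeq2 called 6 members and limma called 1 on the log2 table. At the same threshold on the unadjusted p-value 11 members differed, against 20.4% of all genes. *hmgcra* had 4237, 2184, 935 and 1715 normalized counts in wild-type siblings under DEX and 2447, 986, 467 and 959 in *rx3 strong* mutants. At each time point *rx3 strong* mutants were lower, although the ranges overlapped (log2 change −0.96 ± 0.12, adjusted p = 0.000998), and the call held without any 1 of the 8 libraries. *hmgcs1* had 3521, 2866, 1759.5 and 1451 normalized counts in wild-type siblings and 2544, 1656, 1469 and 928 in *rx3 strong* mutants (−0.55 ± 0.13, adjusted p = 0.0277). Its call was lost when a library of ZT3, ZT9 or ZT21 of either genotype was left out (adjusted p between 0.06 and 0.177). *hmgcrb* had 1117, 1119, 1198 and 916 normalized counts in wild-type siblings and 947, 1172, 1178 and 893 in *rx3 strong* mutants, which again did not differ past the threshold.

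In 1 member the 4 *rx3 strong* libraries were all below the 4 wild-type ones under DEX, where 4.29% of all genes were, and in 0 all above, where 2.47% were. That member was *icmt*, with 533, 403, 435 and 439 normalized counts in wild-type siblings and 267, 334, 348 and 299 in *rx3 strong* mutants, and its log2 change of −0.54 ± 0.15 did not pass the test (adjusted p = 0.0614, edgeR). The other members lower under DEX were *cel.1* and *cyp2r1*. *cel.1* had 4239.6, 12817, 15236 and 12420 normalized counts in wild-type siblings and 2356, 6138, 4614 and 10144 in *rx3 strong* mutants (log2 change −0.99 ± 0.21, adjusted p = 0.0193, edgeR). This call was lost without a library of ZT3, ZT9 or ZT15 (adjusted p between 0.0541 and 0.085). Of the 8 other exocrine pancreas genes 6 were lower in *rx3 strong* mutants under DEX, with sums of 87844 to 208997 against 192879 to 304716. *cyp2r1* had 453, 155, 203 and 272 normalized counts in wild-type siblings and 170.1, 118, 58.1 and 189 in *rx3 strong* mutants (−1.03 ± 0.24, adjusted p = 0.0311), and the call was lost without a library of ZT3 or ZT15 (adjusted p between 0.0985 and 0.134). In the sterol control list 4 of 17 genes were lower under DEX and 0 higher, among them *abcg1* (log2 change −1.55, adjusted p = 0.000193) and *ldlra* (−0.70, adjusted p = 0.00759), while *srebf2* did not pass the test (−0.29, adjusted p = 0.269). The numbers of members called under DEX and in the untreated libraries are not set against each other, since they come from 8 and 12 libraries. Without the ZT3 or the ZT9 library of either genotype the count of members called under DEX was 2.

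**Figure D4:**
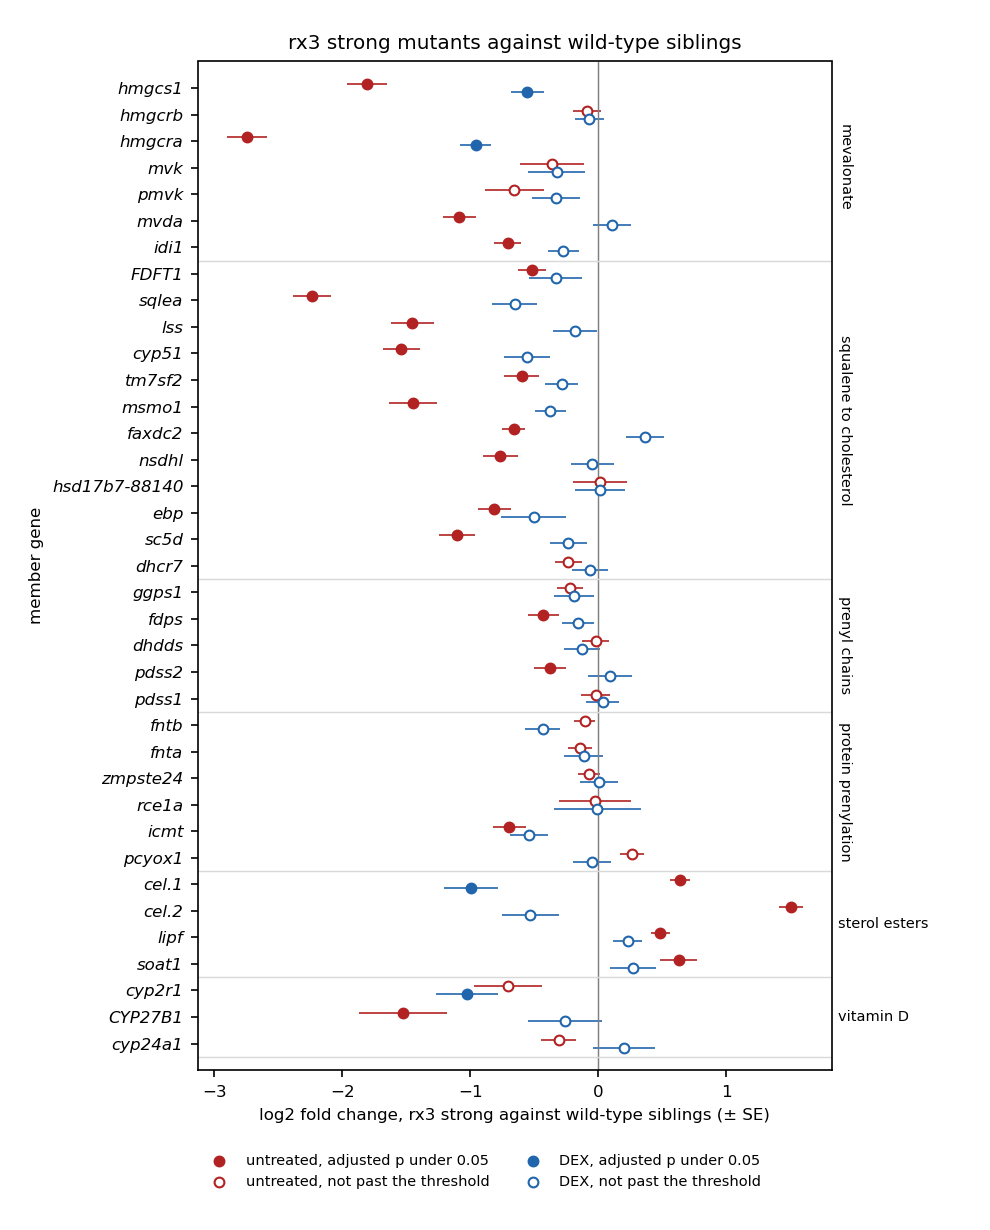
Log2 fold change ± SE (x axis) of *rx3 strong* mutants against wild-type siblings for 37 of the 38 tested members (y axis, grouped by step), untreated (red) and under DEX (blue), with filled points for an adjusted p under 0.05. For *hmgcra* the value is −2.74 untreated and −0.96 under DEX, and for *cel.2* the point moves from the right of 0 to the left.

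Whether the difference between the genotypes itself changed with the treatment was tested as an interaction in 16 libraries. A positive value means that *rx3 strong* mutants stood higher relative to wild-type siblings under DEX than untreated. It does not tell which genotype moved. For *lss* the mean normalized count was 542 untreated and 198 under DEX in wild-type siblings. In *rx3 strong* mutants it was 197 and 167. For *hmgcs1* these means were 2379 and 2399 in wild-type siblings and 673 and 1649 in *rx3 strong* mutants. By the labels the kit changed with the treatment in these means too. Of the 38 members 9 were positive, where 1.46% of the 22809 genes tested were, and 2 were negative, against 0.851%, together 11 where 2.31% of all genes were called. All 9 lie on the route to cholesterol, of which 20 genes were tested. The interaction was 1.76 ± 0.21 (log2) for *hmgcra* (adjusted p = 0.00104, edgeR), 1.56 ± 0.24 for *sqlea* (adjusted p = 0.00435), 1.27 ± 0.23 for *lss* (adjusted p = 0.0113), 1.25 ± 0.17 for *hmgcs1* (adjusted p = 0.00246) and 1.16 ± 0.20 for *mvda* (adjusted p = 0.00888). It was between 0.85 and 1.07 for *msmo1*, *faxdc2*, *cyp51* and *sc5d*. For *sqlea*, the DEX libraries held 731, 414, 111 and 127 normalized counts in wild-type siblings and 545, 204, 95 and 67.8 in *rx3 strong* mutants. For *lss* they held 383, 229.6, 81.4 and 97.9 in wild-type siblings and 317, 167, 99.1 and 84.1 in *rx3 strong* mutants. The ranges of the genotypes, apart in the untreated libraries for both genes, overlapped under DEX. *mvda* had 248, 242, 138 and 155 normalized counts under DEX in wild-type siblings and 268, 241, 176 and 158 in *rx3 strong* mutants, higher in the mutants at 3 of the 4 time points. The counts of *faxdc2*, at 4194, 2041, 1896 and 2771 in wild-type siblings and 3549, 2903, 2789 and 4422 in *rx3 strong* mutants, were higher in the mutants at 3 of the 4 time points. The calls of *hmgcra*, *sqlea*, *hmgcs1*, *mvda*, *cel.1* and *cel.2* held without any 1 of the 16 libraries. That of *lss* was lost without the ZT3 library of untreated wild-type siblings (adjusted p = 0.0552) or of untreated *rx3 strong* mutants (adjusted p = 0.052), and that of *faxdc2* without the ZT3 or ZT21 library of either untreated genotype (adjusted p between 0.0544 and 0.0658). The call of *msmo1* was lost without the ZT3, ZT15 or ZT21 library of either untreated genotype (adjusted p between 0.0643 and 0.0753). That of *sc5d* was lost without these, without wild-type DEX ZT15 or without *rx3 strong* DEX ZT3, ZT15 or ZT21 (adjusted p between 0.0504 and 0.127). That of *cyp51* was lost without any of the 8 untreated libraries, wild-type DEX ZT15 or ZT21, or *rx3 strong* DEX ZT3, ZT15 or ZT21 (adjusted p between 0.0505 and 0.162). Without the ZT3 library of either untreated genotype 6 members were called, and without the ZT21 library of either 7.

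The negative interactions were those of *cel.2* (−2.07 ± 0.28, adjusted p = 0.00224, edgeR) and *cel.1* (−1.66 ± 0.24, adjusted p = 0.00327). *cel.2* had 1345, 2444, 2448 and 2066 normalized counts under DEX in wild-type siblings and 971, 1434, 1056 and 2703 in *rx3 strong* mutants. The mutant libraries, all above the wild-type ones when untreated, were below them at 3 of the 4 time points under DEX. Of the 8 other exocrine pancreas genes 7 also had a negative interaction past the threshold, and 0 a positive one. The kit and DEX cannot be told apart in any interaction, since by the labels every untreated library was made with another kit than the DEX libraries.

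The daily pattern was tested with a cosine and sine of a 24 h period, shared by the genotypes of a treatment. In both treatments the 4 times cover only 1 day. A pattern that repeats daily thus cannot be told apart from a change with age over that day, and a rhythm here means a fit to this period. In the 12 untreated libraries 18 of 38 members had a rhythm, where 17% of all genes tested had one (edgeR). With limma the count was 10. A rhythm was also called for 5 of 9 liver, 4 of 5 enterocyte and 8 of 8 other exocrine pancreas genes, whose part in the rhythm of the members was not tested. The members called include 10 of the 20 genes to cholesterol, with a fitted difference between peak and trough of up to 1.18 on the log2 scale. The smallest adjusted p-values were those of *faxdc2* (peak at ZT20.4, 1.09 from peak to trough, adjusted p = 1e-04), *cyp24a1* (ZT3.4, 1.40, adjusted p = 0.000125), *dhcr7* (ZT3.6, 0.98, adjusted p = 0.000358) and *ebp* (ZT5.5, 1.05, adjusted p = 0.000458). *dhcr7*, the last enzyme of cholesterol synthesis, had 1075, 855, 644 and 907 normalized counts at ZT3, ZT9, ZT15 and ZT21 in wild-type siblings, 1224, 978, 524 and 967 in *rx3 weak* and 985, 908, 513 and 609 in *rx3 strong* mutants. In all 3 genotypes its highest library was that of ZT3 and its lowest that of ZT15. *cyp24a1* had 1034, 574, 452 and 496 normalized counts in wild-type siblings, 1061, 651, 342 and 400.1 in *rx3 weak* and 789, 390, 329.6 and 549 in *rx3 strong* mutants, and was likewise highest at ZT3 in each genotype. The values of *faxdc2*, given above, were highest at ZT21 in each genotype, and those of *ebp* were highest at ZT3 or ZT9. Of the 18 calls 8 held without any 1 of the 12 libraries, these 4 among them. That of *hmgcra* (0.80 from peak to trough, adjusted p = 0.0475) was lost without wild-type or *rx3 weak* ZT9, ZT15 or ZT21 or *rx3 strong* ZT3 or ZT21 (adjusted p between 0.0543 and 0.225). Without wild-type ZT3, wild-type ZT21 or *rx3 weak* ZT15 the count of members called was 11.

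Under DEX 11 of 38 members had a rhythm in the 8 libraries, where 5.54% of all genes tested had one (edgeR). With limma the count was 2 and with DESeq2 it was 19. The 11 include 9 of the 20 genes to cholesterol, whose fitted peaks fell between ZT3.3 and ZT6.3 and whose differences between peak and trough were between 1.27 and 3.08 on the log2 scale. The difference was 2.29 for *hmgcra* (adjusted p = 0.00139), 2.72 for *msmo1* (adjusted p = 0.00488), 3.08 for *sqlea* (adjusted p = 0.00908), 2.23 for *lss* (adjusted p = 0.014) and 2.72 for *cyp51* (adjusted p = 0.0181). *cyp51* had 3821, 1945, 559 and 557 normalized counts at the 4 times in wild-type siblings and 2189.9, 934, 613 and 414 in *rx3 strong* mutants. *msmo1* had 3516, 1976, 619 and 646 normalized counts at ZT3, ZT9, ZT15 and ZT21 in wild-type siblings and 2521, 1329, 596 and 509 in *rx3 strong* mutants. Both genotypes were thus highest at ZT3 and low from ZT15 on. The calls of *hmgcra* and *msmo1* held without any 1 of the 8 libraries, while the other 9 were lost without at least 1. The call of *sqlea* was lost without *rx3 strong* ZT3 (adjusted p = 0.05), and those of *lss* and *cyp51* without that library or wild-type ZT15 (adjusted p between 0.0704 and 0.0902). Without the wild-type library of ZT15 or the *rx3 strong* library of ZT3 the count of members called was 3, and without the wild-type library of ZT3 or of ZT9 it was 7. Under DEX a rhythm was also called for 2 of 9 liver genes, *tfa* (1.37 from peak to trough, peak at ZT4.6, adjusted p = 0.0423) and *fga* (1.02, ZT5.1, adjusted p = 0.0465), and for 1 of 5 enterocyte genes, *fabp2* (2.60, ZT2.2, adjusted p = 0.0114). The sums of the liver genes lay between 152141 and 272755 in wild-type siblings and between 159314 and 328470 in *rx3 strong* mutants under DEX, and those of the enterocyte genes between 23442 and 56584 and between 12500 and 41574. Their part in the rhythm of the members was not tested. Called or not, the median fitted difference between peak and trough was 0.32 untreated and 0.60 under DEX over all genes tested. Over the members it was 0.42 and 0.88. Whether the daily pattern differs between the treatments was not tested either.

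**Figure D5:**
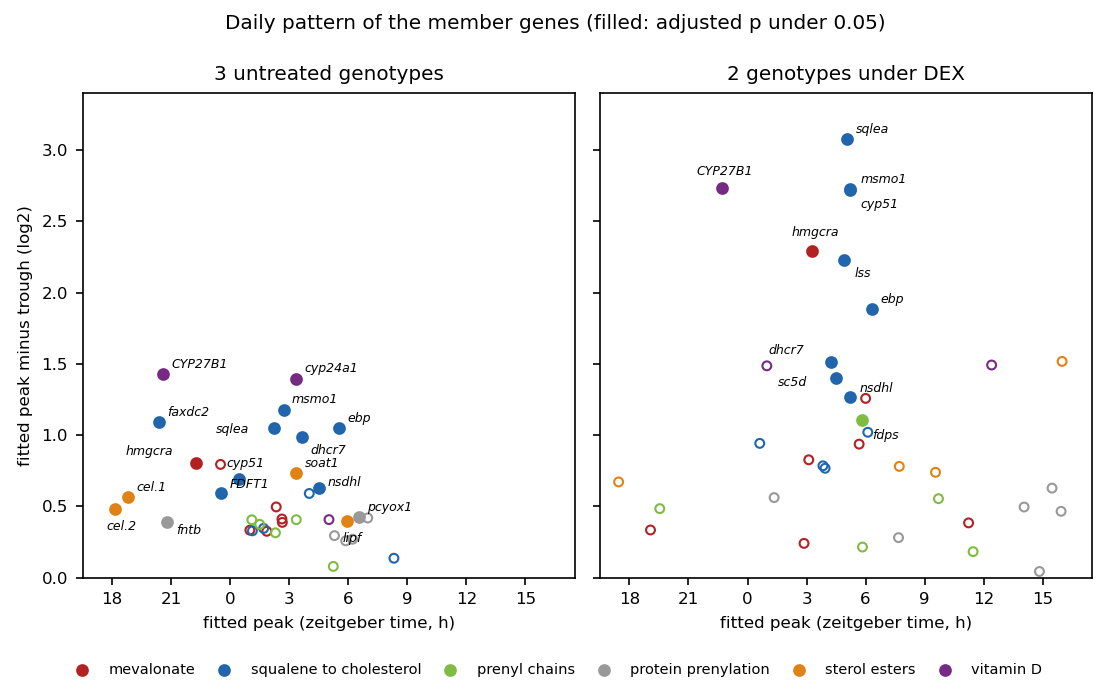
Fitted peak minus trough on the log2 scale (y axis) against the fitted peak time (x axis, zeitgeber hours from ZT18 on) of 37 of the 38 tested members, coloured by step, in the 12 untreated (left) and the 8 DEX libraries (right), with filled points for an adjusted p under 0.05. The filled points of the cholesterol route reach up to 1.18 on the left and lie between 1.27 and 3.08, at ZT3.3 to ZT6.3, on the right.

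Untreated *rx3 strong* mutants were also tested for a rhythm that differs from that of their siblings. It was past the threshold for 0 of 38 members and for 0% of the 22078 genes tested (edgeR, smallest adjusted p 0.431 over all genes). This fit had 9 coefficients for 12 libraries and left 3 residual degrees of freedom, so that large differences in rhythm could go undetected as well as small ones. The fitted differences of *pmvk* (1.72 from peak to trough on the log2 scale) and *hmgcra* (1.14) did not pass the test. At the same threshold on the unadjusted p-value 3 members differed, against 2.85% of all genes, and DESeq2 and limma also called 0 members. The study's own approach, which weighs 15 models of harmonic regression by the BIC, gives classes and no error rate. Of 36 members expressed highly enough for it, 18 (50%) were rhythmic alike in siblings and *rx3 weak* mutants and without a rhythm or with another one in *rx3 strong* mutants, where 31% of the 19605 genes so classified were. Another 7 members shared 1 rhythm in all 3 genotypes (19.4%, against 11.9% of all genes). The 18 fell to 8 with a minimum weight of 0.5 and to 4 with the corrected Akaike criterion. Under DEX 15 of 36 members were placed in the class with 1 rhythm shared by both genotypes, where 25.8% of 18367 genes were. Of the 18 members 8 were in it, and 5 were in the class with a different rhythm in each genotype. For the 18, the matching share over all genes of their untreated class was not computed. These classes are given as a description.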

How the data were processed

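The authors aligned the reads to the Zv9 genome with STAR, counted uniquely mapped reads with HTSeq and deposited raw read counts per Ensembl gene, without normalization, and a table on a log2 scale that the authors normalized and variance stabilized with DESeq2. All main results come from the counts, and the log2 table served as an alternative. Each library was assigned from its label, and 0 sample columns were left unused. The normalized counts printed were divided by DESeq2 size factors of all 20 libraries. R 4.3.3 with edgeR 4.0.16 (TMM, filterByExpr, glmQLFTest), DESeq2 1.42.0 and limma 3.58.1, and Python 3.11.15 with pandas 2.3.3 and matplotlib 3.10.9 were used. Levels were fitted with the time point as a factor, over 12 untreated libraries (6 residual degrees of freedom), 8 DEX libraries (3) or, for the interaction, 16 libraries with the time point within treatment (6). Rhythms were fitted with genotype as a factor. The model classes used the variance stabilizing transformation of each treatment, a minimum mean of 6 and a minimum weight of 0.3 (untreated) or 0.5 (DEX), with 15 or 5 models. The edgeR tests of levels in *rx3 strong* mutants against siblings, of the interaction and of the shared rhythms were checked on simulated data. These counts were drawn independently for each library, so the check cannot tell whether time points can stand in for replicates.

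Values in every untreated library are given for both HMG-CoA reductase genes and up to 15 members past the threshold in untreated *rx3 strong* mutants. They are also given for the 4 smallest adjusted p-values of the untreated rhythm and up to 5 members each of the interaction and DEX. Values in the DEX libraries are given for the same genes except *idi1*, *nsdhl*, *ebp*, *sc5d* and *dhcr7*. Shares of the reductase genes were divided by the deposited gene length. The motif scan that had been planned was not used here. The values of 1 member are not reported here. The members and lists were chosen with earlier results of these data known. Libraries were paired by the time point of their labels, and single time points carry no error. Counts of paralogs may lack reads that fit more than 1 of them, since only uniquely mapped reads were counted, and overlapping genes may share reads. Alternatives were other scalings, filters, tests, units and designs, and fits without each library.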

Additional observations from a re-analysis of the deposited data

Results flagged for a closer look

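A gap of 1 library to the others of its group that is large for a group of 4 was found in 3 of the 100 groups examined (20 genes in 5 conditions), where chance gives about 1 in 20 for 4 replicates. They were *hmgcra* in *rx3 strong* mutants at ZT15 (222.9 normalized counts), *cel.1* in DEX treated wild-type siblings at ZT3 (4239.6), the library with the fewest counts, and *cyp2r1* in wild-type siblings at ZT9 (42.3). All 3 were the lowest of their group. The 4 libraries of a group are different time points and not replicates, so the rate of 1 in 20 need not hold here.

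The genotype difference changed with the treatment, by a test of the interaction itself, in 11 members, with log2 values of 1.76 for *hmgcra*, 1.56 for *sqlea*, 1.27 for *lss*, 1.25 for *hmgcs1*, 1.16 for *mvda*, 1.07 for *msmo1*, 1.00 for *faxdc2*, 0.95 for *cyp51*, 0.85 for *sc5d*, −1.66 for *cel.1* and −2.07 for *cel.2*. By the labels the kit changed with the treatment in each of them and cannot be told apart from it.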

How the results depend on the processing

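Counts of members called were recomputed under other scalings, filters, tests and designs and without each library. Of 71 results for single genes 35 kept their side of the threshold under every alternative run and 36 lost it under at least 1. Of those for levels and the interaction 0 changed direction. A rhythm is given as a size without a sign, so its results could not change direction in this count. The 22 members called in untreated *rx3 strong* mutants against wild-type siblings were 16 to 24 over all 18 alternatives, and 20 to 24 without single libraries. Without the time point, which served as the replicate block, 16 were called there, 2 in *rx3 weak* mutants in place of 4, 10 between the mutants in place of 16, 0 under DEX in place of 4 and 0 for the interaction in place of 11. For *rx3 weak* mutants against wild-type siblings 8 were called with the 8 libraries of both groups only and 7 with no filter on low counts. With limma, on the log2 table of the authors, only 1 was called under DEX in place of 4, 10 had an untreated rhythm in place of 18 and 2 a rhythm under DEX in place of 11, for which DESeq2 called 19. The model class of 18 members held 8 with a weight of at least 0.5 and 4 with the corrected Akaike criterion. Without single libraries the counts ranged from 4 to 9 in *rx3 weak* mutants, from 14 to 18 between the mutants, from 2 to 4 under DEX, from 6 to 12 for the interaction, from 11 to 18 for the untreated rhythm, from 3 to 12 for that under DEX, and were 0 throughout for the rhythm difference. The cause of these shifts was not tested. With 1 library for each condition and time, and 3 or 4 residual degrees of freedom under DEX, small differences could not be detected there. *CYP27B1* and *cyp2r1* rest on few reads.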

Other observations

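Values of the activating and the inactivating enzyme of vitamin D under DEX are given here with no comparison of their rhythms to those of other genes. *CYP27B1* had 47.6, 11.1, 14 and 71.4 normalized counts at ZT3, ZT9, ZT15 and ZT21 in DEX treated wild-type siblings and 22.9, 12.9, 15.7 and 58.3 in DEX treated *rx3 strong* mutants, with a fitted peak at ZT22.7 (2.74 from peak to trough on the log2 scale, adjusted p = 0.0206, edgeR). This call was lost without the wild-type library of ZT9, ZT15 or ZT21 or the *rx3 strong* library of ZT21 (adjusted p between 0.0594 and 0.0733). *cyp24a1* had 1295, 4499, 3342 and 1234 normalized counts in wild-type siblings and 1705, 2837, 3312 and 2732 in *rx3 strong* mutants, with a fitted peak at ZT12.4 that did not pass the test (adjusted p = 0.0919). Its untreated libraries were highest at ZT3 in each genotype. No explanation was tested.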
